A study of Gallus gallus with 6 samples.

Results

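The third day after gentamicin was set against the second in the damaged chick basilar papilla (BP), the auditory epithelium of birds, using 4 of the 6 arrays of the study: 2 arrays from BPs taken 72 hrs after gentamicin and 2 arrays from BPs taken 48 hrs after it. All arrays came from wild type chicks 12 to 16 days old, and each held RNA pooled from the basal part of several BPs of one time point, hybridized to the GeneChip Chicken Genome Array. The other 2 arrays, from control BPs that received no gentamicin and count as time 0, entered no difference and are given only as a level for orientation. The array carried 37693 chicken probe sets, of which 17715 had a mean log2 intensity over 5 on the 4 arrays and were tested. They stood for 8899 of the 13008 genes named on the array, with one probe set per gene, the one of highest mean. Levels are given as log2 intensity in the order replicate 1 and replicate 2, and each difference is the 72-hr value minus the 48-hr value of the same replicate number. The sample titles number the pools 1 and 2, while another label gives the number 2 to both arrays of the 48-hr and control groups. The titles were followed, so the pairing of arrays in the differences is that of the titles, while the counts of arrays that do not overlap and the limma fit do not use it. The p-values rest on the spread between these pools alone, and the sex of the chicks was not given.

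Gentamicin kills the hair cells (HCs) of the basal BP, the sensory cells that turn sound-driven movement into receptor potentials. In birds the supporting cells (SCs) that surround them answer this loss by turning directly into HCs or by re-entering the cell cycle and dividing, with both daughters able to become HCs or SCs. A dividing cell first makes DNA replication enzymes and nucleotides for S phase and then builds up the kinases, kinetochore proteins and spindle motors of mitosis. Some of these mitotic proteins are destroyed again as division ends.

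The 4 arrays had median log2 intensities of 4.88 and 4.96 at 72 hrs, against 4.80 and 4.88 at 48 hrs, and 50.8% to 53.4% of their chicken probe sets lay under an intensity of 32, so that many low values have little precision. The 72-hr replicate 2 array stood apart on the first principal component, which held 60.1% of the variance (29.1 and -59.0 at 72 hrs, 35.2 and -5.3 at 48 hrs). The 3′ minus 5′ log2 signal of GAPDH, which grows as RNA is degraded, was 2.08 and 4.56 at 72 hrs, against 3.01 and 4.91 at 48 hrs. That of actin was 3.65 and 5.03 at 72 hrs, against 3.97 and 3.93 at 48 hrs, and that of EF1A 1.59 and 3.94 at 72 hrs, against 1.95 and 3.01 at 48 hrs, so the 72-hr replicate 2 array had the widest gap in actin and EF1A. The SD of the difference over tested probe sets was 0.39 in replicate 1 and 0.59 in replicate 2, against 0.69 between both 72-hr arrays and 0.49 between both 48-hr arrays. In bulk tissue, fewer cells of a type and less RNA per cell cannot be told apart.

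After adjustment over 17715 probe sets, limma called 1 gene higher at 72 hrs (0.00564% of probe sets) and 1 gene lower (0.00564%). The gene that rose was BUB1B, the spindle checkpoint kinase BUBR1, and the gene that fell was HINTW, a gene of the female-specific W chromosome. The unadjusted limma p was under 0.05 for 363 of 17715 probe sets (194 of 8899 genes). That is a smaller share than a threshold of 0.05 gives on average where no gene differs. An exact two-sided permutation test of 2 against 2 arrays cannot go below p = 0.333. The remaining genes are therefore described by size, using the threshold of the study, a log2 difference over 0.6, required in both replicates. It was passed by 117 genes that were higher at 72 hrs (1.31% of genes tested) and 91 genes that were lower (1.02%), while 48 genes passed it in opposite directions. With each array set to the same median, these counts were 96 and 129, so the balance between both directions rests on the scaling. Both 72-hr arrays lay above both 48-hr arrays for 1191 genes (13.4%) and below them for 1235 genes (13.9%), or 8.8% and 19.9% with equal array medians. Counts without overlap under equal array medians, for lists and for Z genes below, are to be read against 8.8% and 19.9%. At the threshold, SLK (smaller difference 0.60) and HAUS1 (0.608) lay just inside and KCND2 (0.599) and KCNMA1 (0.593) just outside on the higher side. On the lower side TNRC6C (-0.609) lay just inside and MATN3 (-0.595) just outside.

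The makeup of both groups of genes differed. Of the 117 higher genes, 46 were on a list of cell division genes (DNA replication, nucleotide supply, mitosis, cyclins and kinases, DNA repair or chromatin assembly), 9 were on another list and 62 were on none. Of the 91 lower genes, 1 was on a division list, the cyclin CCNA1, 25 were on another list and 65 on none. Of 43 genes over 1 in both replicates 36 were on division lists, of 29 genes over 1.5 it was 26, and of 20 genes over 2 it was 17. Of the 6 genes under -2 in both replicates, 5 were on the W chromosome. All 177 division genes tested, out of 8899 genes, had a median difference of 0.18, so most of them differed little. The lists were chosen with earlier results of these data known. Of 55 mitosis genes, 19 had a mean over 5 only at 72 hrs and so had to differ in order to be tested. The counts on division lists are therefore no independent evidence.

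**Figure D1:**
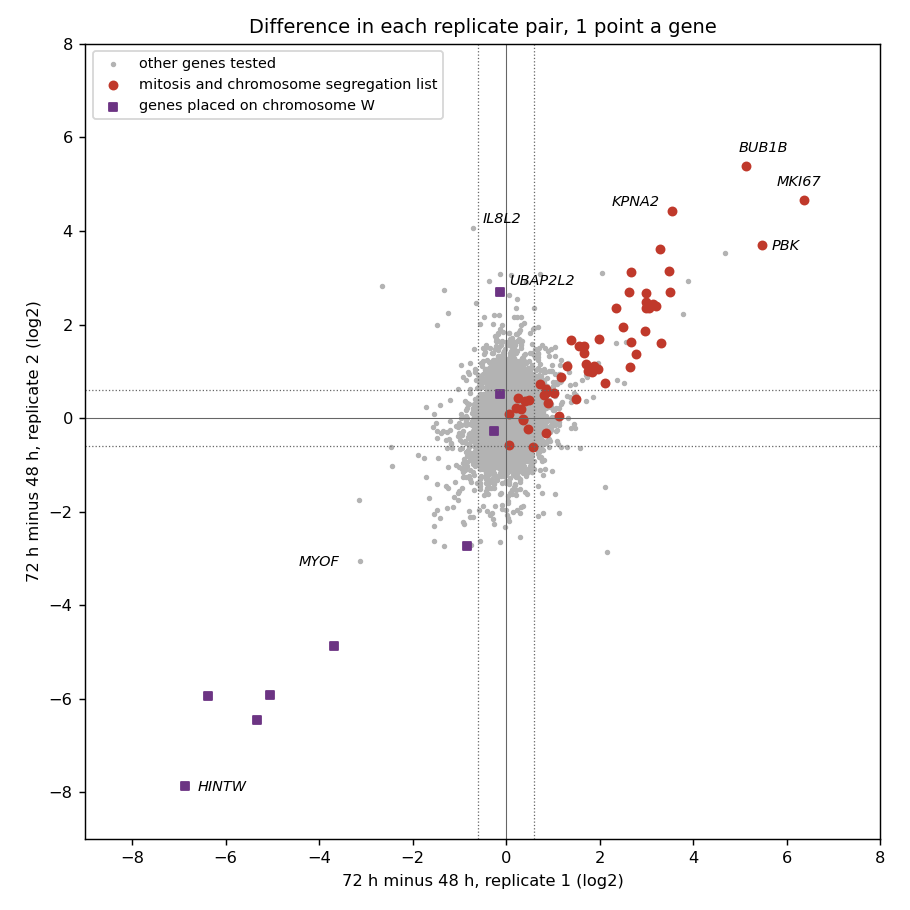
Log2 difference, 72 hrs minus 48 hrs, of each of 8899 genes in replicate 1 (x axis) and replicate 2 (y axis), with mitosis genes in red, W chromosome genes as purple squares, all other genes in grey and dotted lines at 0.6 and -0.6. Most mitosis genes lie in the upper right, up to BUB1B and MKI67, and 6 of the 9 W genes lie in the lower left.

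BUB1B, which delays the separation of chromosomes until all kinetochores are attached, measured 8.51 and 8.34 at 72 hrs, against 3.39 and 2.94 at 48 hrs. Both 72-hr arrays thus stood far above both 48-hr arrays, which lay among the dimmest probe sets, as did the control arrays (3.05 and 2.76). The difference was 5.26 (SE 0.34, 95% CI 4.45 to 6.07, limma adjusted p = 0.0223), and with every value under 32 raised to 32 it was 3.43 and was no longer called. MKI67, the Ki-67 protein that coats mitotic chromosomes and marks proliferating cells, measured 8.29 and 7.29 at 72 hrs, against 1.91 and 2.62 at 48 hrs. Its difference of 5.53 (SE 0.47, adjusted p = 0.0545) missed the threshold and was 2.79 with the floor of 32.

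Among genes without overlap, the next by the smaller of both differences were also genes of division, all on the mitosis list but for RRM2. PBK, a mitotic kinase, measured 8.71 and 7.60 at 72 hrs, against 3.24 and 3.90 at 48 hrs. KPNA2, an importin that carries proteins into the nucleus, measured 9.37 and 8.78 at 72 hrs, against 5.82 and 4.34 at 48 hrs. RRM2, the regulated subunit of ribonucleotide reductase, measured 10.13 and 8.85 at 72 hrs, against 5.45 and 5.33 at 48 hrs. In all of these the groups stood apart by over 2 log2 units in each replicate. FAM83D, a spindle protein, measured 7.87 and 8.16 at 72 hrs, against 4.59 and 4.54 at 48 hrs, and CKAP2, another one, measured 9.0 and 8.23 at 72 hrs, against 5.52 and 5.08 at 48 hrs. CDCA3, a protein of the entry into mitosis, measured 8.49 and 6.84 at 72 hrs, against 4.60 and 3.90 at 48 hrs. CENPW, a histone-fold protein of the centromere, measured 9.29 and 8.77 at 72 hrs, against 5.80 and 6.07 at 48 hrs. Replicate 2 was the lower 72-hr array for PBK, KPNA2, RRM2, CKAP2, CDCA3 and CENPW and the higher one for FAM83D. TOP2A, the topoisomerase that disentangles sister DNAs, measured 8.80 and 8.99 at 72 hrs, against 6.13 and 5.86 at 48 hrs. KIF11, the motor that pushes spindle poles apart, measured 7.02 and 6.60 at 72 hrs, against 4.04 and 3.93 at 48 hrs. NUF2, of the NDC80 complex that holds microtubules at the kinetochore, measured 9.42 and 8.74 at 72 hrs, against 6.78 and 6.05 at 48 hrs. None of the genes from MKI67 to NUF2 passed adjustment (adjusted p 0.0545 to 0.49). That all of them were higher in both replicates was required by their choice. MKI67, PBK, FAM83D, CDCA3 and KIF11 had a mean over 5 only at 72 hrs, so they had to differ in order to be tested.

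**Figure D2:**
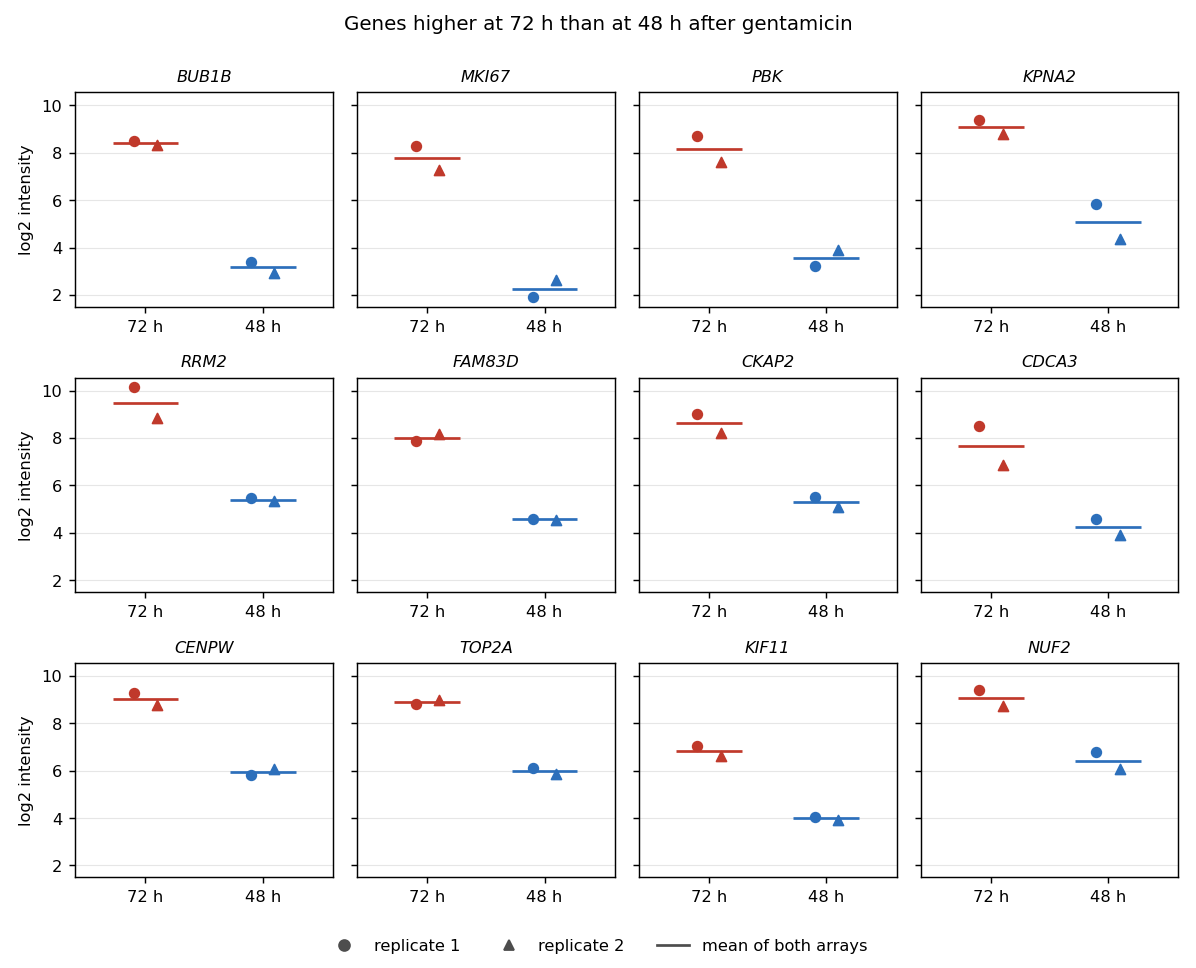
Log2 intensity (y axis) of 12 genes higher at 72 hrs, one panel per gene. They had the largest difference in both replicates among genes whose arrays did not overlap between times. The 2 arrays at 72 hrs stand left of the 2 arrays at 48 hrs, with a circle for replicate 1, a triangle for replicate 2 and a line at their mean. In every panel both 72-hr points lie above both 48-hr points, as the choice required.

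The mitosis list held 91 genes, of which 76 were on the array and 55 were tested. Of these 55, 37 were higher at 72 hrs by the rule of both replicates (67.3%, against 1.31% of all genes) and none was lower, and for 47 (85.5%, against 13.4%) the arrays did not overlap with 72 hrs above. The list was part of the earlier work on these samples and is no independent evidence of its direction. It leaves out 21 genes that were on the array at means of 5 or less, and 19 of the 55 had a group mean over 5 only at 72 hrs, so these had to differ in order to be tested. The median over the list was 7.74 and 7.29 at 72 hrs, against 5.40 and 5.30 at 48 hrs. Control arrays had medians of 4.96 and 5.43. The median difference was 1.74 in replicate 1 and 1.12 in replicate 2, and replicate 1 had the larger difference in 44 of 55 genes. Without the 72-hr replicate 2 array, the median was 1.88, and without the 72-hr replicate 1 array it was 1.16. Over probe sets with a mean over 7, it was 0.73 instead of 1.51. Under equal array medians 36 genes still passed the rule upward.

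The classes of mitotic machinery differed in size. Every class was affected by genes that had a mean over 5 only at 72 hrs, which had to differ in order to be tested. Among these were PBK and MASTL (kinases), KIF11, KIF23 and NUSAP1 (motors), MIS12 and NDC80 (kinetochore), BUB1B (checkpoint) and ANLN (cytokinesis). Of all genes, 1.31% passed the rule upward. Chromosome structure genes had medians of 2.67 and 2.43 in replicates 1 and 2 over 5 genes, with 4 past the rule, but MKI67, SMC4 and SMC2 had a mean over 5 only at 72 hrs and so had to differ in order to be tested. SMC4 and SMC2, the ATPases of condensin, which folds chromosomes for mitosis, were both far higher: SMC4 measured 7.74 and 7.08 at 72 hrs, against 4.60 and 4.65 at 48 hrs, and SMC2 measured 7.38 and 5.58 at 72 hrs, against 4.71 and 3.95 at 48 hrs. NCAPD2, another condensin subunit, was measured at 6.07 and 5.27 at 72 hrs, against 5.71 and 5.30 at 48 hrs, with overlapping arrays. All 7 mitotic kinases and their partners passed the rule upward. CDK1, the kinase that starts mitosis, measured 9.72 and 8.69 at 72 hrs, against 7.83 and 7.57 at 48 hrs. AURKB, of the chromosomal passenger complex, measured 8.02 and 7.57 at 72 hrs, against 4.96 and 5.22 at 48 hrs. Its scaffold INCENP measured 7.74 and 7.40 at 72 hrs, against 5.40 and 5.04 at 48 hrs, so both partners were higher on each 72-hr array than on either 48-hr array. The cyclin that the array annotation names CCNB1, whose gene lies on chromosome 10 with CCNB2 as a synonym, measured 8.64 and 7.94 at 72 hrs, against 5.65 and 5.57 at 48 hrs. MASTL, the kinase that keeps CDK1 targets phosphorylated, measured 6.34 and 6.19 at 72 hrs, against 4.79 and 4.67 at 48 hrs.

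Of 17 motor and spindle genes, 12 passed the rule upward and 15 were higher without overlap (1.31% and 13.4% of all genes). Their medians were 1.66 and 1.40. TPX2, which nucleates spindle microtubules, measured 7.76 and 7.87 at 72 hrs, against 5.27 and 5.93 at 48 hrs. KIF23, a motor of the central spindle, measured 7.51 and 7.33 at 72 hrs, against 4.51 and 4.83 at 48 hrs, and NUSAP1, which bundles spindle microtubules, measured 7.63 and 6.90 at 72 hrs, against 4.42 and 4.51 at 48 hrs. All 3 were higher on both 72-hr arrays, but KIF23 and NUSAP1 had to differ in order to be tested. Of 3 cytokinesis genes 2 passed the rule, and PRC1, which bundles the midzone, measured 7.52 and 6.98 at 72 hrs, against 6.21 and 5.87 at 48 hrs. ANLN, the scaffold of the contractile ring, measured 6.53 and 5.92 at 72 hrs, against 3.89 and 4.83 at 48 hrs.

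Kinetochore and centromere genes were mixed, with 10 of 18 past the rule upward and 13 higher without overlap (1.31% and 13.4% of all genes). MIS12 measured 7.06 and 6.13 at 72 hrs, against 3.75 and 4.53 at 48 hrs, and NDC80, the partner of NUF2, 7.01 and 6.23 at 72 hrs, against 4.05 and 4.36 at 48 hrs. CENPC, the inner centromere protein, measured 6.35 and 5.54 at 72 hrs, against 5.89 and 5.78 at 48 hrs, with overlap, and CENPF, a large protein of the outer kinetochore, 5.44 and 5.43 at 72 hrs, against 5.23 and 5.21 at 48 hrs. The spindle checkpoint had medians of 1.49 and 0.55 over 5 genes. BUB1 measured 7.01 and 6.84 at 72 hrs, against 5.02 and 5.15 at 48 hrs. MAD2L1, the MAD2 protein, measured 9.31 and 8.75 at 72 hrs, against 8.44 and 8.21 at 48 hrs, and BUB3, which also has work outside mitosis, 10.90 and 10.83 at 72 hrs, against 10.58 and 10.63 at 48 hrs. All 3 were higher on both 72-hr arrays, but only BUB1 passed 0.6 in both replicates.

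DNA replication genes differed far less between times. Of 31 tested, 2 passed the rule upward and none downward, against 1.31% and 1.02% of all genes. The median difference was 0.14 in replicate 1 and 0.03 in replicate 2. CDC45, which activates the replicative helicase, measured 7.09 and 6.17 at 72 hrs, against 4.53 and 4.55 at 48 hrs. It had a mean over 5 only at 72 hrs, so it had to differ in order to be tested. MCM6, a helicase subunit, measured 8.17 and 6.57 at 72 hrs, against 5.82 and 4.97 at 48 hrs. Both were higher on each 72-hr array than on either 48-hr array. Its fellow subunit MCM2 measured 7.34 and 6.90 at 72 hrs, against 6.68 and 6.90 at 48 hrs, and PCNA, the sliding clamp, 8.93 and 7.64 at 72 hrs, against 7.94 and 7.69 at 48 hrs. For PCNA the replicates went apart, with 72 hrs higher in replicate 1 only. Of the list, 8 genes lay higher without overlap (25.8%, against 13.4%) and 1 lower, or 7 and 3 with equal array medians. In the nucleotide list RRM2, TK1 and DCK passed the rule upward, 3 of 15 (background 1.31%). TK1, the thymidine kinase of S phase, measured 6.83 and 6.49 at 72 hrs, against 5.66 and 5.24 at 48 hrs. DCK, the deoxycytidine kinase, measured 9.93 and 9.74 at 72 hrs, against 8.95 and 8.73 at 48 hrs. RRM1, the large partner of RRM2, measured 7.86 and 7.35 at 72 hrs, against 7.41 and 7.27 at 48 hrs, and TYMS, which makes thymidylate, 8.45 and 7.85 at 72 hrs, against 7.95 and 7.87 at 48 hrs. Both overlapped, so the subunits of ribonucleotide reductase differed widely in size of difference.

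Of 20 cyclins, kinases and cell cycle factors, 2 passed the rule upward and 1 downward, against 1.31% and 1.02% of all genes. E2F1, the transcription factor of S-phase genes, measured 8.0 and 7.91 at 72 hrs, against 6.85 and 6.77 at 48 hrs, where its arrays nearly coincided within each time. Control arrays had 6.11 and 6.24. MYBL1, a MYB family transcription factor, measured 8.49 and 7.40 at 72 hrs, against 5.98 and 6.65 at 48 hrs. CCNA1, a cyclin best known from male germ cells, measured 5.49 and 4.33 at 72 hrs, against 6.43 and 5.81 at 48 hrs, and was the one division gene lower by the rule. It had a mean over 5 only at 48 hrs, so it had to differ in order to be tested. CCND1, the cyclin of G1, measured 8.80 and 8.94 at 72 hrs, against 8.43 and 8.39 at 48 hrs, a small gap without overlap.

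Of 22 chromatin and nuclear envelope genes, 1 passed the rule upward (background 1.31%). It was HELLS, a chromatin remodeller that works with DNA methylation, with 7.77 and 6.65 at 72 hrs, against 6.06 and 5.74 at 48 hrs. Without overlap 9 of 22 were higher and 1 lower (40.9% and 4.55%, against 13.4% and 13.9% of all genes), or 6 and 2 with equal array medians. LMNB2, a lamin of the nuclear envelope, measured 8.71 and 9.35 at 72 hrs, against 8.24 and 8.74 at 48 hrs, which overlapped, whereas LBR, the lamin B receptor, measured 9.36 and 9.54 at 72 hrs, against 8.97 and 9.16 at 48 hrs. EZH2, the histone H3 methyltransferase of Polycomb, measured 9.04 and 8.65 at 72 hrs, against 8.49 and 8.35 at 48 hrs. Of 34 DNA repair genes 1 passed the rule upward (background 1.31%). This was MSH3, with 6.83 and 6.35 at 72 hrs, against 6.19 and 5.55 at 48 hrs, and its gene is on the Z chromosome. With equal array medians or quantile normalization no DNA repair gene passed.

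Genes outside the division lists were chosen after their values were seen. Several have a division-related role all the same. KNSTRN, a kinetochore protein, measured 7.33 and 6.06 at 72 hrs, against 5.36 and 4.87 at 48 hrs. UBE2T, the ubiquitin-conjugating enzyme of the Fanconi anemia pathway, measured 7.12 and 6.85 at 72 hrs, against 6.14 and 5.71 at 48 hrs. Neither overlapped. DCK2 measured 8.73 and 7.07 at 72 hrs, against 4.96 and 4.84 at 48 hrs, and ATP8A2, a phospholipid flippase, 6.70 and 6.13 at 72 hrs, against 4.66 and 3.02 at 48 hrs. DCK2 and ATP8A2 had a mean over 5 only at 72 hrs, so they had to differ in order to be tested. PENK, the precursor of enkephalins, measured 11.09 and 10.95 at 72 hrs, against 10.08 and 10.19 at 48 hrs (adjusted p = 0.876). CYR61, a matricellular protein induced by growth factors and by YAP, measured 8.28 and 8.70 at 72 hrs, against 7.56 and 7.68 at 48 hrs. For CYR61 control arrays were lower still, at 6.43 and 5.98, so its levels ranked in the order control, 48 hrs and 72 hrs. BMP6, a bone morphogenetic protein, measured 6.31 and 7.83 at 72 hrs, against 5.70 and 6.53 at 48 hrs, with overlap, and MAP2, a neuronal microtubule protein, 6.49 and 6.09 at 72 hrs, against 5.58 and 4.77 at 48 hrs.

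Genes of the sex chromosomes leaned one way as groups. HINTW measured 3.93 and 3.72 at 72 hrs, against 10.79 and 11.60 at 48 hrs. Control arrays had 11.51 and 11.09, so the 72-hr arrays alone were low. The difference was -7.37 (SE 0.36, 95% CI -8.24 to -6.50, limma adjusted p = 0.00828), and -6.20 with the floor of 32. UBE2R2L, also on W, measured 1.94 and 3.45 at 72 hrs, against 8.32 and 9.39 at 48 hrs. LOC430910 measured 3.36 and 3.81 at 72 hrs, against 8.42 and 9.74 at 48 hrs. HNRNPKL measured 5.39 and 4.97 at 72 hrs, against 6.23 and 7.70 at 48 hrs. Its dimmer probe set measured 3.12 and 3.72 at 72 hrs, against 7.88 and 9.43 at 48 hrs. The other probe set of UBE2R2L measured 4.68 and 4.42 at 72 hrs, against 5.83 and 7.06 at 48 hrs. Of 9 W genes tested, 7 were lower at 72 hrs without overlap (77.8%, against 13.9%). HINTW, UBE2R2L, LOC374195, LOC430910 and LOC107049459 had a mean over 5 only at 48 hrs, so they had to differ in order to be tested. Hens carry a Z and a W chromosome and cocks a pair of Z chromosomes. Of 416 genes on Z, by the GRCg7b assembly, 132 were higher at 72 hrs without overlap and 21 lower (31.7% and 5.05%), against 12.5% and 14.3% of 8399 genes on other chromosomes. With equal array medians the Z counts were 85 and 26. The median difference of Z genes was 0.11 in replicate 1 and 0.30 in replicate 2, against -0.01 and -0.03 on other chromosomes. The chicks that made up the pools cannot be told apart from the time after gentamicin here. On Z were 11 of the 117 higher genes and 3 of the 91 lower genes, against 416 of all 8899 genes tested. The Z genes among the higher ones were CCL19, CENPH, CENPK, GCNT1, HAUS1, MSH3, NAA35, NTRK2, PPIP5K2, SMC2 and TMC1, and those among the lower ones ITGA1, PTGR1 and RLN3. Of the 12 genes in the plot of the largest increases none was on Z, but 12 genes are too few to compare with the share of Z genes.

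**Figure D3:**
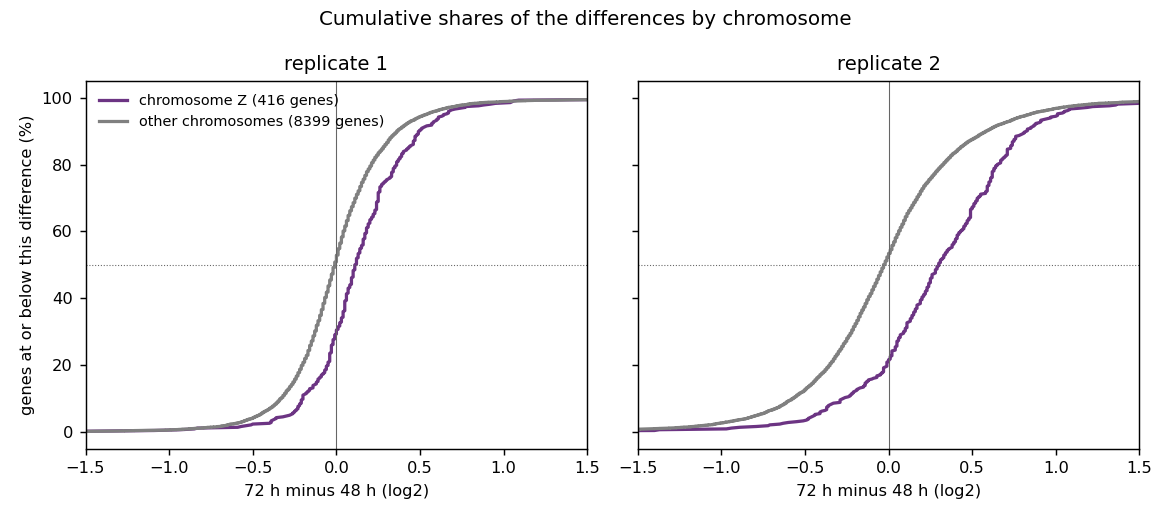
Cumulative share of genes (y axis) at or below each log2 difference, 72 hrs minus 48 hrs (x axis), for 416 Z genes and 8399 genes on other chromosomes, in replicate 1 and in replicate 2. The Z curve lies to the right of the other curve through the middle of its range in both replicates, with medians of 0.11 and 0.30, against -0.01 and -0.03.

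Of genes lower at 72 hrs, leaving W aside, none was called (limma adjusted p 0.999 for each of the 12 lowest without overlap). MYOF, a protein of membrane repair, measured 5.92 and 3.69 at 72 hrs, against 9.05 and 6.75 at 48 hrs. Its difference was close to 3 in each replicate, but replicates of one time were over 2 apart, with replicate 1 the higher at both times. WIF1, a secreted inhibitor of Wnt ligands, measured 4.88 and 3.63 at 72 hrs, against 8.02 and 5.39 at 48 hrs, with the same order. ADM, the vasodilator peptide adrenomedullin, measured 6.96 and 6.02 at 72 hrs, against 8.61 and 7.75 at 48 hrs. RLN3, a relaxin hormone encoded on Z, measured 4.95 and 3.36 at 72 hrs, against 6.49 and 5.68 at 48 hrs. TMSB15B, a thymosin that binds actin monomers, measured 8.12 and 6.04 at 72 hrs, against 9.66 and 8.68 at 48 hrs. None of these 5 overlapped between times, as the choice required. On control arrays MYOF measured 9.78 and 4.92, WIF1 6.79 and 3.23 and ADM 8.52 and 6.38. Each of these gaps between controls was wider than the mean difference between times. For RLN3 (3.22 and 3.46) and TMSB15B (7.48 and 5.89) the control arrays lay closer together. MYOF, WIF1 and RLN3 had a mean over 5 only at 48 hrs, so they had to differ in order to be tested. CTBS, a lysosomal glycosidase, measured 7.98 and 7.45 at 72 hrs, against 9.27 and 8.91 at 48 hrs, and ATP12A, a proton pump, 5.39 and 4.99 at 72 hrs, against 6.63 and 6.49 at 48 hrs. RAB40B, a small GTPase, measured 5.47 and 4.91 at 72 hrs, against 6.73 and 6.84 at 48 hrs. In CTBS, ATP12A and RAB40B the replicates of each time lay close together, and OVOA measured 6.55 and 5.21 at 72 hrs, against 8.03 and 7.17 at 48 hrs. Of the 91 lower genes 72 did not overlap and 19 did, among them NEXN, an actin-binding protein, with 9.95 and 7.70 at 72 hrs, against 11.49 and 9.75 at 48 hrs.

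**Figure D4:**
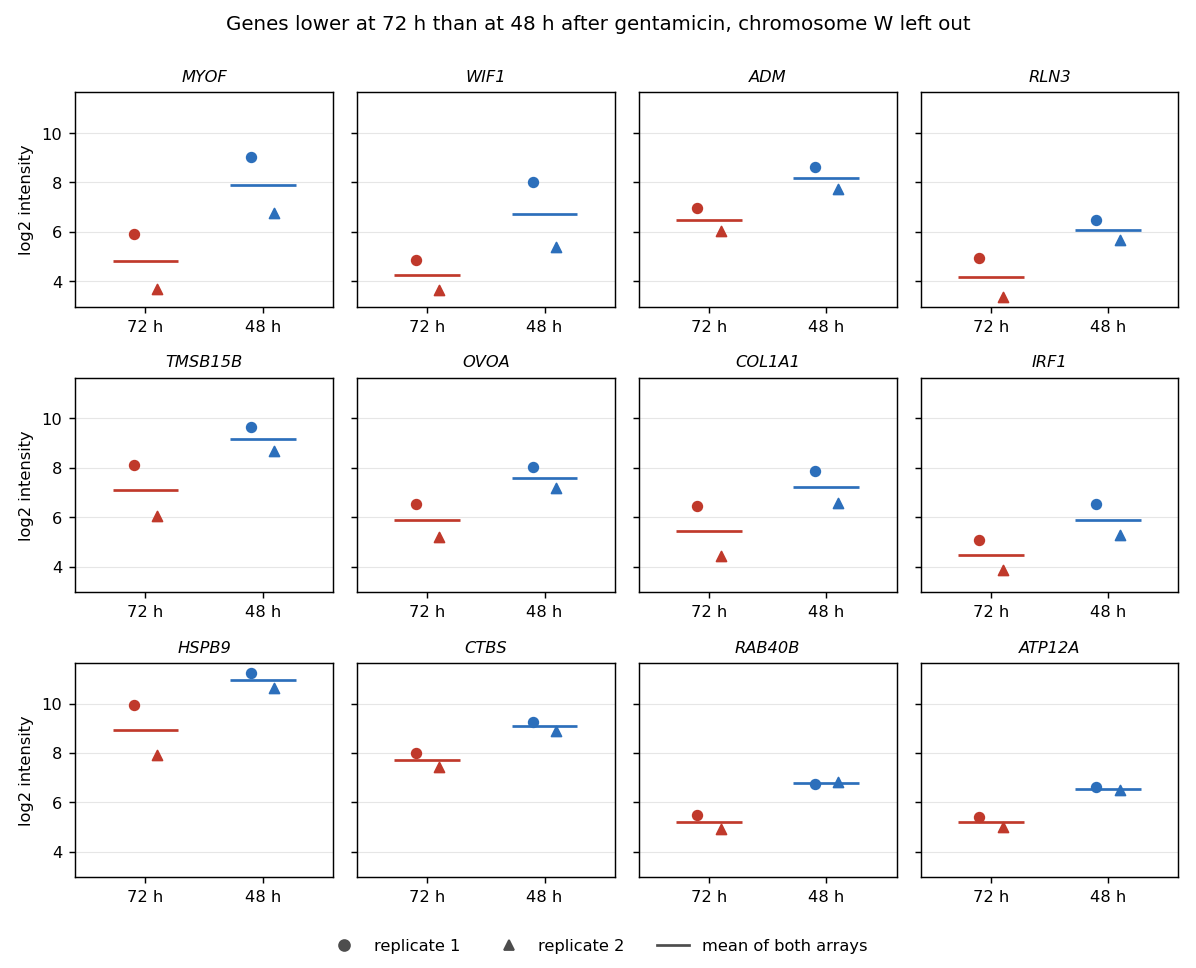
Log2 intensity (y axis) of 12 genes lower at 72 hrs, one panel per gene. They had the largest decrease in both replicates among genes, W genes apart, whose arrays did not overlap between times. NEXN, which overlapped, is therefore not shown. The 2 arrays at 72 hrs stand left of the 2 arrays at 48 hrs, with a circle for replicate 1, a triangle for replicate 2 and a line at their mean. Both 72-hr points lie below both 48-hr points in each panel, as the choice required. Several panels, such as that of MYOF, show a gap between replicates of the same time.

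Of 15 immediate early and stress factors, 1 was higher (CYR61) and 2 were lower by the rule, and of 28 heat shock genes 1 was lower and none higher, against 1.31% higher and 1.02% lower of all genes. HSPB9, which the study calls HSP25, a small heat shock protein, measured 9.93 and 7.91 at 72 hrs, against 11.25 and 10.64 at 48 hrs. Control arrays had 7.31 and 7.96. HBEGF, a ligand of the EGF receptor, measured 6.87 and 4.86 at 72 hrs, against 7.65 and 6.98 at 48 hrs, with controls at 4.81 and 4.84. In both genes 72 hrs lay between 48 hrs and control in replicate 1 and close to control in replicate 2. ATF3, a stress-induced transcription factor, measured 5.29 and 4.43 at 72 hrs, against 7.05 and 5.28 at 48 hrs, where replicate 1 at 72 hrs overlapped replicate 2 at 48 hrs. ATF3 had a mean over 5 only at 48 hrs, so it had to differ in order to be tested. CEBPB, a factor of the inflammatory response, measured 7.66 and 7.57 at 72 hrs, against 8.64 and 8.24 at 48 hrs. TUBB6, a beta tubulin, measured 8.23 and 6.26 at 72 hrs, against 9.15 and 8.53 at 48 hrs. Its control arrays lay at 6.03 and 4.97.

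Of 24 cytokine and interferon response genes, 5 were lower by the rule and 1 was higher (20.8% and 4.17%, against 1.02% and 1.31% of all genes). Without overlap 9 were lower (37.5%, against 13.9%) and none was higher. Of the 5, IRF1, PTGS2, TNFAIP2 and TNFAIP6 had a mean over 5 only at 48 hrs, so they had to differ in order to be tested. The higher gene, CCL19, had one only at 72 hrs. The median difference was -0.41 in replicate 1 and -0.32 in replicate 2. IRF1, a transcription factor of interferon signalling, measured 5.06 and 3.85 at 72 hrs, against 6.54 and 5.26 at 48 hrs. Its control arrays had 3.77 and 3.84. PTGS2, the inducible cyclooxygenase, measured 5.33 and 4.24 at 72 hrs, against 6.03 and 6.36 at 48 hrs. IRF7, the interferon factor of the type I response, measured 4.72 and 5.30 at 72 hrs, against 5.41 and 6.15 at 48 hrs. IRF1, PTGS2 and IRF7 were each lower on both 72-hr arrays, at levels near the limit of measurement, and with the floor of 32 the rule left 1 gene of the list lower. NFKBIA, the inhibitor of NF-kB that NF-kB itself induces, measured 6.71 and 5.98 at 72 hrs, against 7.15 and 6.90 at 48 hrs, and IL6 measured 7.15 and 7.11 at 72 hrs, against 7.55 and 7.76 at 48 hrs. The gene that was higher was CCL19, a chemokine encoded on Z, with 5.28 and 6.25 at 72 hrs, against 4.54 and 5.37 at 48 hrs and with overlap. The 9 leukocyte markers, none of them at the minimum of 1, summed to intensities of 443 and 337 at 72 hrs, against 473 and 400 at 48 hrs, and their part in these values was not tested. Of 17 phagocyte and leukocyte genes 2 were lower by the rule (background 1.02%) and none was higher. CTSS, a lysosomal protease of phagocytes, measured 4.99 and 4.20 at 72 hrs, against 5.82 and 5.14 at 48 hrs, and BLB1, an MHC class II chain, 6.85 and 4.92 at 72 hrs, against 7.64 and 6.91 at 48 hrs. CTSS had a mean over 5 only at 48 hrs, so it had to differ in order to be tested. LCP1, an actin-bundling protein of leukocytes, went the other way, with differences of 0.40 and 1.37, as did the T cell coreceptor CD8A, with 0.39 and 0.63. CD8A had a mean over 5 only at 72 hrs.

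HC genes showed no shared shift. Of 30 tested, 3 were higher and 1 lower by the rule (background 1.31% and 1.02%), 3 were higher and 2 lower without overlap (10% and 6.67%, against 13.4% and 13.9%), and the median difference was 0.01. All 3 higher ones serve mechanotransduction, and with equal array medians 2 passed the rule. TMC1, a subunit of the transduction channel encoded on Z, measured 6.37 and 7.36 at 72 hrs, against 5.34 and 6.04 at 48 hrs. TMC2 measured 9.08 and 7.33 at 72 hrs, against 8.12 and 5.85 at 48 hrs, and CIB2, which binds TMC proteins, 11.13 and 11.96 at 72 hrs, against 10.47 and 11.28 at 48 hrs. TMC2 and CIB2 overlapped because the replicates differed by more than the times. SNAP25, a SNARE of synaptic vesicle release found in neurons too, measured 7.76 and 7.58 at 72 hrs, against 8.55 and 8.69 at 48 hrs. OCM1, the calcium buffer oncomodulin, measured 12.94 and 12.70 at 72 hrs, against 12.93 and 12.70 at 48 hrs, and CALB1, another calcium buffer, 13.10 and 13.15 at 72 hrs, against 13.16 and 13.25 at 48 hrs. These abundant markers were level. CALB2, the calcium buffer calretinin, measured 10.69 and 8.91 at 72 hrs, against 10.65 and 11.05 at 48 hrs, so that the 72-hr replicate 2 array alone was low. Its control arrays had 6.76 and 5.85. The 8 HC markers on the array, CALB2 among them, summed to intensities of 3325 and 1875 at 72 hrs, against 3215 and 3478 at 48 hrs, with 1822 and 1311 in controls. These sums follow CALB2 and do not describe the markers as a set. MYO6 measured 9.06 and 9.61 at 72 hrs, against 9.24 and 9.45 at 48 hrs, with 9.03 and 9.19 in controls. OTOF measured 9.70 and 7.55 at 72 hrs, against 9.48 and 8.51 at 48 hrs, with 9.48 and 8.22 in controls.

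None of 34 SC genes passed the rule. Without overlap 10 were higher and 1 lower (29.4% and 2.94%, against 13.4% and 13.9% of all genes). With equal array medians these were 7 and 6, while the share of all genes also fell on the higher side and rose on the lower side. SLC1A3, the glutamate transporter GLAST, encoded on Z, measured 11.93 and 12.36 at 72 hrs, against 11.44 and 11.49 at 48 hrs. HES5, a Notch target of SCs, measured 9.15 and 8.37 at 72 hrs, against 8.03 and 8.15 at 48 hrs. Control arrays had 9.57 and 9.78, so HES5 was below control at both times. HEY1, another target of Notch, measured 11.69 and 11.92 at 72 hrs, against 11.33 and 11.58 at 48 hrs. The 10 SC markers summed to 30030 and 29790 at 72 hrs, against 29623 and 31060 at 48 hrs, and thus overlapped. Of 27 Notch pathway genes none passed the rule, and 8 were higher without overlap and 2 lower (13.4% and 13.9% of all genes), or 7 and 5 with equal array medians. DLL1, the Notch ligand of nascent HCs, measured 9.57 and 9.48 at 72 hrs, against 9.01 and 9.07 at 48 hrs. HES6, a transcription factor of differentiating HCs, measured 9.19 and 8.10 at 72 hrs, against 7.72 and 8.23 at 48 hrs, with overlap. Its control arrays had 4.01 and 4.36, far below all 4 arrays after gentamicin. None of 26 FGF genes passed the rule. FGFR3, the FGF receptor of SCs, measured 12.40 and 12.64 at 72 hrs, against 12.37 and 12.33 at 48 hrs, and FGF10, a ligand encoded on Z, 8.27 and 7.97 at 72 hrs, against 7.71 and 6.06 at 48 hrs.

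Markers of other cell types were checked in the same way. The 7 fibroblast markers summed to 633 and 552 at 72 hrs, against 728 and 795 at 48 hrs, with 2981 and 445 in controls. Of 25 fibroblast matrix genes 2 were lower by the rule (8%, against 1.02% of all genes) and none was higher. Without overlap 5 were higher and 6 lower (20% and 24%, against 13.4% and 13.9% of all genes). The median difference was 0.04, so the list had no shared direction. COL1A1, a chain of type I collagen, measured 6.45 and 4.44 at 72 hrs, against 7.86 and 6.57 at 48 hrs. Control arrays had 9.93 and 5.36, a wider gap than that between times. COL12A1, a collagen on the surface of fibrils, measured 6.61 and 4.84 at 72 hrs, against 7.35 and 7.55 at 48 hrs. DCN, the small proteoglycan decorin, measured 6.96 and 5.12 at 72 hrs, against 7.11 and 7.78 at 48 hrs, lower mainly in replicate 2. Of 15 neuronal genes 2 passed the rule upward (13.3%, against 1.31% of all genes), MAP2 and the neurotrophin receptor NTRK2. Without overlap 5 were higher and 2 lower (33.3% and 13.3%, against 13.4% and 13.9% of all genes). The neuronal markers summed to 4101 and 3253 at 72 hrs, against 3690 and 2435 at 48 hrs. Their control sums, 1505 and 3888, differed by more than the times did. NTRK2, encoded on Z, measured 6.72 and 7.48 at 72 hrs, against 6.03 and 6.12 at 48 hrs. Schwann cell markers summed to 446 and 146 at 72 hrs, against 406 and 316 at 48 hrs. MBP, a myelin protein, measured 9.68 and 9.35 at 72 hrs, against 10.55 and 10.07 at 48 hrs, and was the Schwann cell gene that passed the rule downward. Red blood cell markers, 3 of them on the array, summed to 686 and 155 at 72 hrs, against 458 and 226 at 48 hrs. The part of such other cells in the matrix and myelin values was not tested.

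Genes that every cell uses were level. None of 63 cytosolic ribosomal protein genes and none of 56 oxidative phosphorylation genes passed the rule in either direction, and of 32 proteasome genes 1 was lower (background 1.02%). The same held for the lists of apoptosis, antioxidant, cholesterol and cilia genes, where none passed. Of 21 genes of the MYC family and ribosome production none passed. MYC itself, a driver of cell growth, measured 7.98 and 7.25 at 72 hrs, against 7.43 and 6.98 at 48 hrs, with overlap. Of 33 Wnt genes 1 was lower and none higher, and of 30 BMP and TGF-beta genes 1 was higher and 1 lower. Of all genes 1.31% were higher and 1.02% lower by the rule. Of 27 keratin and junction genes none passed the rule, while 7 were lower and 3 higher without overlap (25.9% and 11.1%, against 13.9% and 13.4% of all genes). Apart from mitosis at 1.51, the list medians of the mean difference lay between -0.33 for the cytokine and interferon list and 0.25 for the 3 red blood cell genes, against -0.01 for all genes tested.

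**Figure D5:**
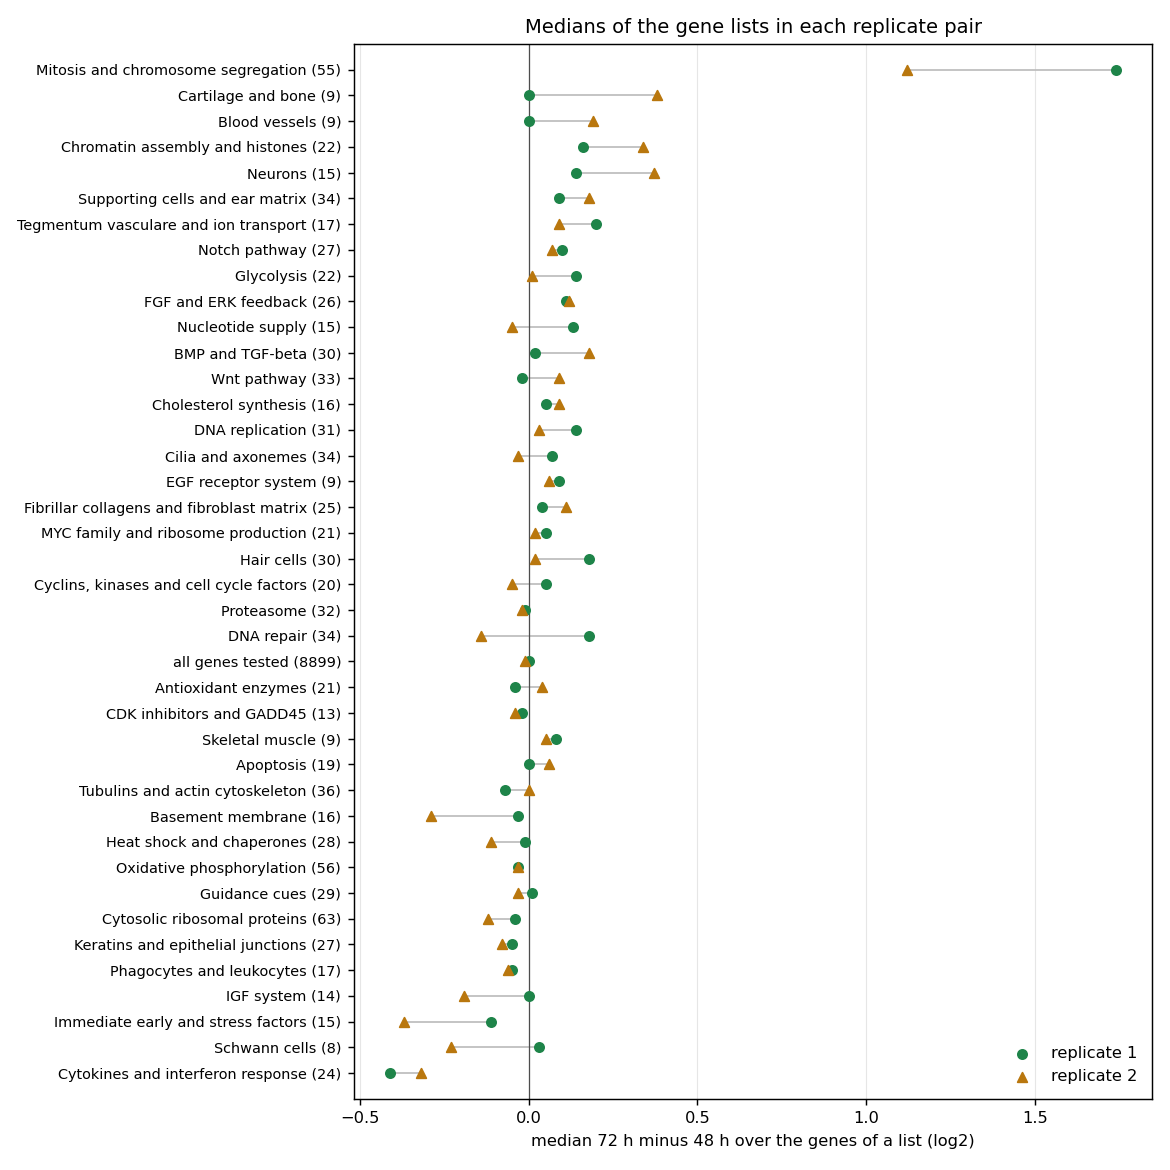
Median log2 difference, 72 hrs minus 48 hrs (x axis), of the genes in each list (y axis), with a circle for replicate 1 and a triangle for replicate 2, leaving out the red blood cell list and the list of genes the study named. Mitosis and chromosome segregation lies far to the right at 1.74 and 1.12, and cytokine and interferon response lies to the left at -0.41 and -0.32.

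For some genes the replicates disagreed, and 28 of 48 such genes were higher in replicate 1 and lower in replicate 2. NCF4, a subunit of the phagocyte oxidase, measured 4.25 and 7.83 at 72 hrs, against 6.90 and 5.0 at 48 hrs. PRIM2, a subunit of DNA primase, measured 7.15 and 4.42 at 72 hrs, against 5.04 and 5.89 at 48 hrs. For both genes the 72-hr arrays were the highest and the lowest of the 4. IL8L2, an interleukin 8-like chemokine, measured 3.59 and 8.60 at 72 hrs, against 4.29 and 4.53 at 48 hrs, high on the 72-hr replicate 2 array alone. ID2, an inhibitor of bHLH factors, measured 12.94 and 10.65 at 72 hrs, against 12.97 and 12.98 at 48 hrs, and EGR1, an immediate early gene, 11.16 and 9.70 at 72 hrs, against 11.18 and 11.06 at 48 hrs. In ID2 and EGR1 that same array was low and the other 3 lay close together. Where a gene had several tested probe sets, those of TMC1 (2 higher, 1 lower), EZH2 (1 and 1), ID2 (1 and 3), CALB1 (2 and 1) and KCNMA1 (3 and 1) did not all go one way.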

How the data were processed

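The authors labelled total RNA from pooled basal parts of BPs and hybridized it to the Affymetrix GeneChip Chicken Genome Array. The deposited values are linear intensities, 1 per probe set and array, normalized by the authors in dChip, while the submitters' processing notes name MAS5. No version was given in the sources used here. Of 38535 probe sets, 153 control or reporter and 689 viral or other probe sets were left out, and 0 value columns lacked a sample. Values were taken to log2 with no pseudocount and no further scaling, and probe sets with a mean over 5 on the 4 arrays were kept.

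Both times were compared with limma (3.58.1, R 4.3.3; trended prior, 4 arrays, Benjamini-Hochberg adjustment), and by the difference in each replicate. The remaining steps used Python 3.11.15 with pandas 2.3.3, numpy 2.4.6 and matplotlib 3.10.9. On simulated data 10% of log2 changes of 1, 51.2% of those of 2 and 90.4% of those of 3 were recovered at an adjusted p of 0.05. The simulation drew each array independently and added changes only to brighter probe sets. In the real data, deviations of same-numbered arrays correlated at 0.509 between times, so these shares need not hold for them. Of 37693 chicken probe sets, 27166 had 1 gene symbol in the platform annotation, 177 had several and 10350 had none. Chromosomes were those of GRCg7b.

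The genes, 41 lists and tests were chosen with earlier results of these data known. Named genes were the limma calls and the 12 genes per direction with the largest smaller-of-both difference among genes without overlap, W genes apart. Up to 6 W genes, up to 4 members a direction and the defining members of the lists, and chick genes named by the study were also named. Alternatives were other scalings, a floor, a pseudocount, other filters, all 6 arrays, a replicate block and leaving out each array. The number of arrays limits the precision. Promoter sequences and motifs were not analysed here.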

Additional observations from a re-analysis of the deposited data

How the results depend on the processing

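With 2 arrays per time, the limma counts rested on how the spread was estimated. Against 1 gene higher and 1 lower, the replicate block gave 35 and 28 probe sets, and all 6 arrays in 1 fit gave 9 and 8. Of the 35 higher probe sets under the block 26 were on division lists, and of the 28 lower ones 7 were on W. The limma fit without the block was kept as the main one, since the labels disagree on the numbers and there are only 2 pairs. The rule of both replicates does pair arrays by title number, and differences of both replicates correlated at 0.286 across probe sets. Deviations of same-numbered arrays from their group means correlated at 0.509 between 72 hrs and 48 hrs. A floor of 32, no filter and a mean over 7 each gave 0 higher and 1 lower, and leaving out W and Z genes gave 1 and 0. Leaving out each array in turn, with the lone array assumed to vary like the others, gave 3 to 203 higher and 7 to 106 lower. These were 203 and 106 without the 72-hr replicate 1 array, 37 and 12 without 72-hr replicate 2, 5 and 10 without 48-hr replicate 1, and 3 and 7 without 48-hr replicate 2. BUB1B was not called with the floor or without a filter. None of the 30 genes rerun (limma calls, 12 per direction and W genes) changed sign under any alternative run. These genes were chosen without overlap between times, so the floor, the block or leaving out an array could not change their sign. Their constant sign is therefore no sign of robustness. Equal array medians moved the median of all tested probe sets to -0.06, against 0.01 as reported, so nearly level genes have no settled direction. By the rule of both replicates, 249 probe sets were higher and 168 lower. These counts were 133 and 105 with log2(value + 16), 1577 and 1273 without a filter, and 59 and 51 with a mean over 7. Non-overlapping probe sets numbered 2591 and 2243, and 5829 and 5022 without a filter and 1205 and 1242 with a mean over 7. The mitosis median was 0.73 with a mean over 7, and the DNA replication median ran between -0.04 and 0.27 over arrays left out. Low signal limits the genes near an intensity of 32.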
